A study of Mus musculus with 24 samples.

Results

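Txnip, the alpha-arrestins Arrdc1, Arrdc2, Arrdc3 and Arrdc4, and the glucose-sensing transcription factor pair MondoA (gene Mlxip) and Mlx were followed across all libraries of the series. These 7 genes were picked by symbol from the deposited table of 19895 entries, and all 7 had counts in every library and were among the 11439 entries tested. Txnip was selected on its low level in tumour organoids, so its values in KP against N are given as a description, with no test. Mlx was counted only in a joint entry with Psmc3ip, a recombination cofactor gene that overlaps it tail to tail, and reads of the pair cannot be told apart. That entry is written Mlx+Psmc3ip throughout, and the other 6 genes were resolved to a single symbol.

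N organoids were grown from normal pancreatic ducts of C57Bl/6J mice. KP organoids were grown from tumours of mice in which Pdx1-Cre switches on tumour alleles, p53 R172H among them, in the pancreatic epithelium. Both were cultured without EGF and N-acetylcysteine and treated for 1 h with vehicle (DMSO) or with 10 nM CR-31, a rocaglate that inhibits the RNA helicase eIF4A, and cycloheximide was added for the last 5 min in every group. Each of the 12 lysates, 3 per organoid type and treatment, gave a library of total mRNA and a library of polysome-associated mRNA, the mRNA bound by at least 3 ribosomes, so that 8 groups of 3 libraries were compared. The labels do not say whether the replicates were separate cultures or animals, and p-values measure only the spread between these samples.

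MondoA and its relative ChREBP (gene Mlxipl) bind DNA as dimers with Mlx. When glucose is phosphorylated inside the cell they enter the nucleus and activate genes that hold a carbohydrate response element, a pair of E-box-like half-sites spaced by 5 bases. Txnip and Arrdc4 are the best known of these targets. Their proteins are alpha-arrestins, adaptors that bring membrane proteins to ubiquitin ligases of the Nedd4 family for internalisation, and both hold back glucose uptake, whereas Txnip also binds and inhibits thioredoxin. Arrdc1 recruits the ESCRT machinery and drives the budding of vesicles at the plasma membrane, and Arrdc3 is known as an adaptor for the beta2-adrenergic receptor. The Txnip mRNA is short-lived, so its level follows changes in transcription quickly.

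The stretches below show the binding-site letters of the 3 genes of this axis. They are from RefSeq promoter windows on GRCm38.p6, which reach from 250 bases before to 50 bases after a gene's start and were found for all 7 genes. The motifs were chosen after these sequences had been seen and were searched on both strands. The capitals mark a pair of CACGNG half-sites with 5 bases between them in Txnip (chr3:96557867-96557893, plus strand), and the E-box CACGTG in Arrdc4 (chr7:68749416-68749441, minus strand) and Mlx (chr11:101087240-101087265, plus strand).
Txnip: ctgtgCACGAGggctgCACGAGcctcc
Arrdc4: aggtcctgtgCACGTGcactatggtg
Mlx: tgggttggatCACGTGactgagcctc
The half-site pair was searched with both half-sites in 1 direction, as they stand in Txnip, and not with half-sites that face each other. It occurred in 16 of 32851 promoter windows (0.0487%), and Txnip was the only one of the 7 genes with it. Which genes hold a carbohydrate response element in another layout was not tested. The E-box occurred in 7.15% of windows and among the 7 genes in Arrdc4 and Mlx alone. The CCAAT box, a common promoter element which occurred in 37.4% of windows, stood 2 times in the Txnip window, 6 times in that of Arrdc4, 3 times in that of Arrdc2, 2 times each in those of Mlxip and Mlx, 1 time in 2 of the 3 windows of Arrdc3 and nowhere in that of Arrdc1. A match of letters is a description of the window and not of binding in these organoids.

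The libraries held 47308461 to 267463046 counted reads, and the lowest count of any of the 7 genes in any library was 358 (Arrdc2), so counting error was small beside the spread between replicates. Of the cell type markers, the 8 ductal epithelial genes summed to 5820 to 13066 CPM (counts scaled to a common library size) in every library, and the 5 endocrine, 4 endothelial and 6 acinar genes to at most 6.60. The 5 immune genes summed to 4.52 to 24.5 in N and 1.84 to 8.45 in KP. The 6 fibroblast genes summed to 0.612 to 4.86 in N and 0.183 to 22.6 in KP. The 22.6 was in polysome-associated mRNA of vehicle-treated KP and came mostly from Vim (up to 22.5), while the other KP groups reached at most 1.10. The part of these markers in the results was not tested. No sequencing lane held both organoid types, so KP against N cannot be told apart from the lane. In bulk libraries, fewer cells of a type and less RNA per cell cannot be told apart either.

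N replicate 3 stood apart. Its CR-31 minus vehicle log ratios in polysome-associated mRNA ran against those in total mRNA, with r = -0.67 across 11439 genes, which are not independent replicates. The same correlation was 0.40 and 0.20 in N replicates 1 and 2, and -0.28, 0.51 and 0.19 in KP replicates 1, 2 and 3. Among the 7 genes, its vehicle polysome library and its CR-31 total library were alike in high Txnip (1574 and 1578 CPM) and low Mlxip (25.09 and 26.3). Its vehicle total and CR-31 polysome libraries were alike in Txnip (314 and 279.8) and Mlxip (49.9 and 45.2). The labels were used as given, and whether labels of these 4 libraries were exchanged, which would change what their values mean, was not tested. Results that rest on this replicate are given with and without its lysates, an alternative chosen after seeing the data.

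Per transcript length, Txnip had the highest mean of the genes in each group except polysome-associated mRNA of vehicle-treated KP organoids. In total mRNA of vehicle-treated N organoids it reached 101 ± 24.5 RPKM (SD, n = 3), followed by Arrdc4 with 52.4 ± 25.9, Arrdc1 with 41.5 ± 4.97 and Mlx+Psmc3ip with 32.7 ± 3.48. The ranges of Arrdc4 and of Arrdc1 overlapped, as did those of Arrdc4 and Mlx+Psmc3ip, so their order is not resolved. Mlxip with 6.06 ± 0.391, Arrdc3 with 4.17 ± 1.64 and Arrdc2 with 3.10 ± 0.5004 RPKM formed a low group, in which the ranges of Mlxip and Arrdc3 and of Arrdc3 and Arrdc2 overlapped. The sensor subunit MondoA was thus a low-level mRNA beside its target Txnip. In total mRNA of vehicle-treated KP organoids Txnip had 64.3 ± 14.7 RPKM and was followed by Mlx+Psmc3ip with 52.2 ± 6.05, Arrdc1 with 50.2 ± 3.33 and Arrdc4 with 27.6 ± 3.93. There the ranges of Txnip and Mlx+Psmc3ip overlapped, as did those of Mlx+Psmc3ip and Arrdc1, whereas Arrdc4 lay below all of them. On polysomes of vehicle-treated KP organoids Arrdc1 had 64.6 ± 7.19 RPKM, Mlx+Psmc3ip 48.98 ± 6.57 and Txnip 47.5 ± 21.04, and the range of Txnip overlapped those of both.

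**Figure D1:**
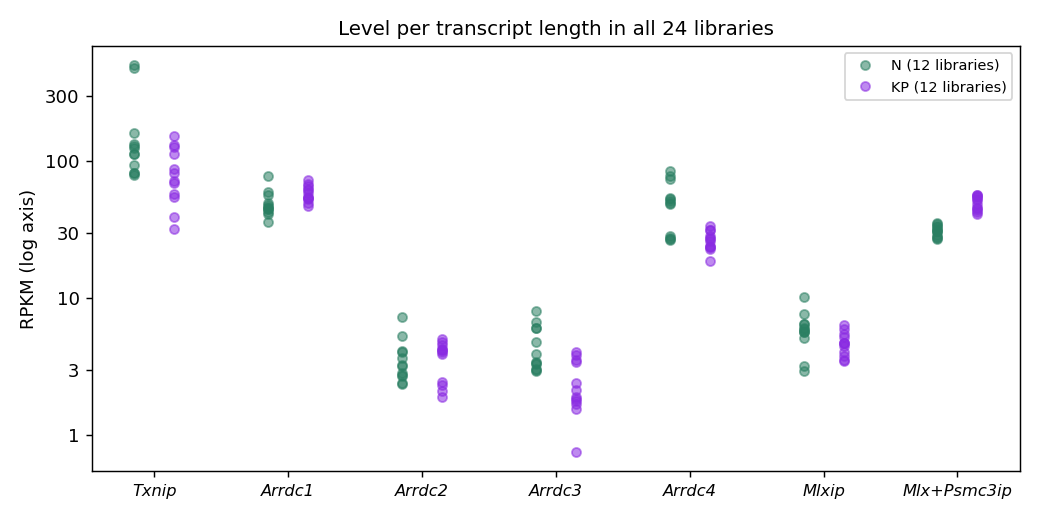
RPKM of each gene on a log axis, with 12 libraries of N and 12 of KP organoids as points over both treatments and fractions. Txnip spans 32.1 to 499.5 RPKM, while Arrdc2, Arrdc3 and Mlxip stay at or below 10.2 RPKM in all 24 libraries.

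Txnip, the target and glucose-uptake inhibitor, spanned a 14.1-fold range of CPM over the 24 libraries and 4.37-fold without N replicate 3, where Arrdc3 spanned 8.78-fold. In total mRNA of vehicle-treated organoids the 3 N libraries held 240.0, 413 and 314 CPM and the 3 KP libraries 163, 181 and 253. KP lay lower on average, but its highest library was above the lowest N library. In polysome-associated mRNA the N libraries held 231, 319.7 and 1574 and the KP libraries 127, 112 and 238, so that again the highest KP library passed the lowest N library. The fitted log2 differences were -0.70 ± 0.46 (SE) in total and -2.16 ± 0.62 in polysome-associated mRNA. With N replicate 3 left out they were -0.72 ± 0.30 and -0.80 ± 0.36, so that the larger polysome value rested on 1 library. After CR-31 the N libraries held 352, 488 and 1578 in total and 321, 396 and 279.8 in polysome-associated mRNA, against 303, 466 and 402 and 209.7, 379 and 358 in KP. KP and N thus overlapped in both fractions, and the fitted differences were -1.05 ± 0.47 in total and -0.08 ± 0.59 in polysome-associated mRNA. Leaving out N replicate 3 gave a difference in total mRNA after CR-31 of -0.11 ± 0.31.

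**Figure D2:**
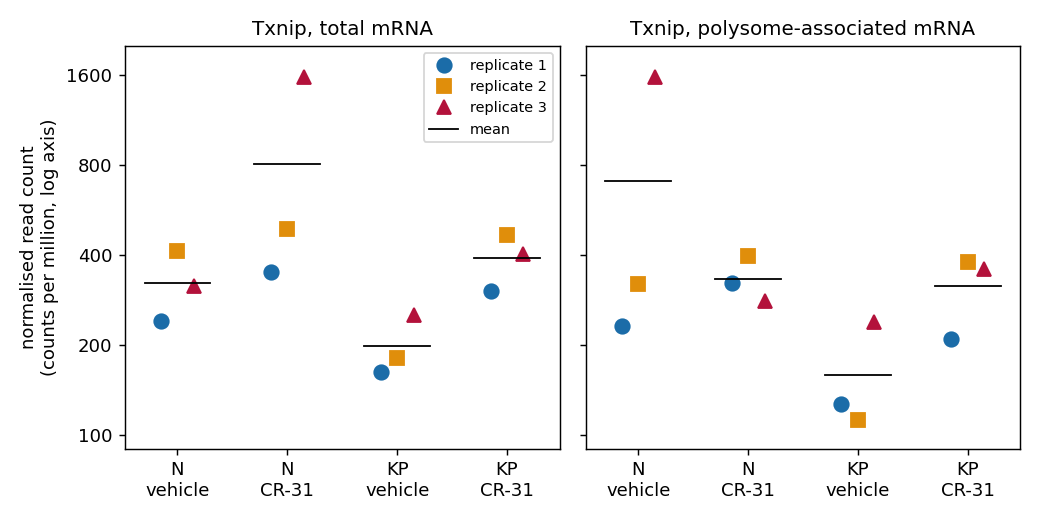
Txnip in CPM on a log axis for the 3 libraries of each group (symbols mark the replicate number, lines the mean), in total mRNA on the left and polysome-associated mRNA on the right. N replicate 3 reaches 1578 in CR-31 total mRNA and 1574 in vehicle polysome-associated mRNA, and vehicle-treated KP holds the lowest libraries.

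In order of mean, the 4 groups of total mRNA ran from vehicle-treated KP (199 ± 47.7 CPM, SD, n = 3) over vehicle-treated N (322 ± 86.7) and CR-31-treated KP (390.2 ± 82.2) to CR-31-treated N (806 ± 672). Each group overlapped its neighbours in that order. In polysome-associated mRNA the order was vehicle-treated KP (159 ± 68.9), CR-31-treated KP (315 ± 92.1), CR-31-treated N (332 ± 58.8) and vehicle-treated N (708 ± 751), and here too all neighbours overlapped. With replicate 3 of N left out, vehicle-treated N (275, n = 2) came second, below CR-31-treated KP and CR-31-treated N (358, n = 2), and the order in total mRNA stayed as it was.

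With CR-31, Txnip was higher than with vehicle in most same-numbered pairs. The vehicle libraries of KP are among those on which Txnip was selected as low, which favours a rise with CR-31 in KP. Its p-values for CR-31 in KP, and for the effect in KP minus that in N, are therefore descriptions. In total mRNA of KP organoids the pairs of replicates 1, 2 and 3 differed 1.86-, 2.58- and 1.59-fold, and the CR-31 libraries did not overlap the vehicle libraries. In total mRNA of N organoids they differed 1.46-, 1.18- and 5.02-fold, where the third is the pair of N replicate 3. All 6 pairs of total mRNA were thus higher with CR-31, as was the case for 858 (7.50%) of 11439 genes. In polysome-associated mRNA of KP the pairs differed 1.65-, 3.39- and 1.503-fold. In that of N replicates 1 and 2 were 1.39- and 1.24-fold higher and replicate 3 had 0.178 times the vehicle value. Txnip was therefore higher in 5 of 6 polysome pairs, with the sixth in the opposite direction. All 3 polysome pairs of KP were higher for 28.9% of all genes.

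None of these differences passed the test. The log2 fold changes by edgeR's quasi-likelihood test were 0.97 ± 0.46 (SE, unadjusted p = 0.0580) in total mRNA of KP, 1.32 ± 0.47 (unadjusted p = 0.0154) in total mRNA of N, 0.99 ± 0.60 (unadjusted p = 0.123) in polysome-associated mRNA of KP and -1.09 ± 0.60 (unadjusted p = 0.0927) in that of N. The adjusted p was 1.00 in each. This test left the pairing of same-numbered libraries out. In it CR-31 against vehicle gave 0 called genes of 11439 (0%) at an adjusted p under 0.25 in every organoid type and fraction. At an unadjusted p under 0.05 there were 109 genes in total mRNA of KP, 297 in that of N, 406 in polysome-associated mRNA of KP and 48 in that of N. Each is a smaller share of the 11439 genes than the 0.05 that would be met on average with no change. DESeq2 called 8, 13, 0 and 0 genes in the same order, and limma on RPKM 0, 1, 0 and 0. None of them was one of the 7 genes.

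Same-numbered vehicle and CR-31 libraries of 1 organoid type deviated together and form pairs. With the number as a block, edgeR called 2212 genes (19.3%) in polysome-associated mRNA of KP, 7 in total mRNA of N and 0 in the other sets, again with none of the 7 genes among them. The lowest blocked adjusted p was that of Txnip in polysome-associated mRNA of KP, with a log2 fold change of 1.02 ± 0.50 (adjusted p = 0.283 by edgeR). The blocked values of Txnip were 0.98 ± 0.33 (adjusted p = 0.884 by edgeR) in total mRNA of KP, 1.02 ± 0.35 (adjusted p = 0.532) in that of N and -0.50 ± 0.53 (adjusted p = 0.950) in polysome-associated mRNA of N. When N replicate 3 was left out, the value in N was 0.36 ± 0.34 in total and 0.39 ± 0.40 in polysome-associated mRNA, so the latter turned positive. The effect of CR-31 on Txnip in KP minus that in N was 2.08 ± 0.85 (adjusted p = 1.00 by edgeR) in polysome-associated and -0.35 ± 0.65 (adjusted p = 1.00) in total mRNA. Leaving out N replicate 3 gave 0.60 ± 0.51 and 0.61 ± 0.44. The difference of effects called 0 of 11439 genes (0%) in both fractions, with 258 and 15 genes at an unadjusted p under 0.05. Both are smaller shares of the genes than the 0.05 met on average with no change.

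Of the 4 arrestins besides Txnip, Arrdc3 and Arrdc4 were lower in KP on polysomes, and Arrdc1 and Arrdc2 did not pass the test. Whether these genes differed from one another was not tested. In polysome-associated mRNA of vehicle-treated organoids 4 of the 6 genes other than Txnip were called at an adjusted p under 0.25 (Arrdc3, Arrdc4, Mlxip and Mlx+Psmc3ip), while 43.1% of all genes tested were called. In total mRNA 1 of 6 was called (Mlx+Psmc3ip), against 28.5% of all genes.

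Arrdc4, the second glucose-responsive arrestin, held 63.4, 153 and 210.5 CPM in total mRNA of vehicle-treated N and 59.9, 92.1 and 76.5 in KP. On polysomes it held 67.0, 143 and 172 in N and 63.3, 83.5 and 71.2 in KP. N replicate 1 was as low as KP in both fractions, so the groups overlapped. The log2 fold change was -0.81 ± 0.41 (SE, adjusted p = 0.196 by edgeR) on polysomes and -0.90 ± 0.50 (adjusted p = 0.299) in total mRNA. The polysome call was lost without N replicate 3, at -0.53 ± 0.41 (adjusted p = 0.367), and without any of 5 single lysates (N vehicle replicates 2 and 3 and each of the 3 vehicle lysates of KP), at -0.92 to -0.54.

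Arrdc3, the receptor adaptor, held 14.7, 28.4 and 15.1 CPM in total mRNA of vehicle-treated N and 8.26, 7.17 and 15.6 in KP. On polysomes it held 14.5, 33.6 and 18.7 in N and 8.09, 9.05 and 17.2 in KP. KP replicate 3 reached into the N range in both fractions. The log2 fold change was -0.96 ± 0.44 (adjusted p = 0.153 by edgeR) on polysomes and -0.90 ± 0.52 (adjusted p = 0.317) in total mRNA. With N replicate 3 left out the polysome value was -1.08 ± 0.50 (adjusted p = 0.144), and the call was lost without N vehicle replicate 2 (-0.54), KP vehicle replicate 1 (-0.76) or KP vehicle replicate 2 (-0.81).

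Arrdc1, the arrestin of vesicle budding, held 76.5, 88.5 and 73.2 CPM in total mRNA of vehicle-treated N and 89.1, 102.8 and 88.9 in KP. On polysomes it held 72.2, 77.3 and 153 in N and 123.3, 153 and 118 in KP. The groups did not overlap in total mRNA, which held for 32.4% of all genes, whereas on polysomes N replicate 3 lay above every KP library. The log2 fold change was 0.24 ± 0.19 (adjusted p = 0.492 by edgeR) in total and 0.38 ± 0.27 (adjusted p = 0.355) in polysome-associated mRNA. When N replicate 3 was left out the polysome value was 0.81 ± 0.18 and was called (adjusted p = 0.0144).

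Arrdc2 was the arrestin with the least difference between the organoid types. It held 9.09, 7.46 and 8.06 CPM in total mRNA of vehicle-treated N and 10.4, 5.63 and 10.2 in KP, and 9.93, 5.65 and 20.102 against 11.4, 5.54 and 13.4 on polysomes. The groups overlapped in both fractions. The log2 fold change was 0.09 ± 0.37 (adjusted p = 0.915 by edgeR) in total and -0.23 ± 0.48 (adjusted p = 0.775) in polysome-associated mRNA, and the latter was 0.38 ± 0.47 without N replicate 3.

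Mlx+Psmc3ip was higher in KP in both fractions, whereas Mlxip passed the test on polysomes only, where it was lower. Mlx+Psmc3ip held 55.7, 54.8 and 51.4 CPM in total mRNA of vehicle-treated N and 90.6, 79.2 and 87.8 in KP. On polysomes it held 47.9, 38.4 and 54.9 in N and 95.6, 82.2 and 83.1 in KP. Every KP library was above every N library in both fractions, and in both fractions after CR-31 as well. With vehicle the organoid types were separate in this way, in either direction, for 32.4% of all genes in total and 33.8% in polysome-associated mRNA, and after CR-31 for 29.3% and 28.96%. The log2 fold change was 0.67 ± 0.17 (adjusted p = 0.0344 by edgeR) in total and 0.89 ± 0.19 (adjusted p = 0.0125) in polysome-associated mRNA, and both were called in each of the 20 alternatives tried for them. Which of the overlapping genes carried this rise was not resolved by the counts.

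Mlxip, which encodes MondoA, held 49.7, 50.8 and 49.9 CPM in total mRNA of vehicle-treated N and 40.9, 52.3 and 44.8 in KP, so the groups overlapped. On polysomes it held 58.3, 75.9 and 25.09 in N and 29.8, 40.5 and 34.97 in KP, where N replicate 3 lay below all KP libraries and the other N libraries above them. The log2 fold change was -0.12 ± 0.21 (adjusted p = 0.770 by edgeR) in total and -0.60 ± 0.32 (adjusted p = 0.217) in polysome-associated mRNA. Leaving out N replicate 3 gave a polysome value of -0.94 ± 0.20 (adjusted p = 0.0121 by edgeR). The call was lost in 7 of 13 settings that left lysates out, down to -0.25 without N vehicle replicate 2, and also with no filter on low counts (adjusted p = 0.261 by edgeR) and with limma on RPKM (adjusted p = 0.282).

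**Figure D3:**
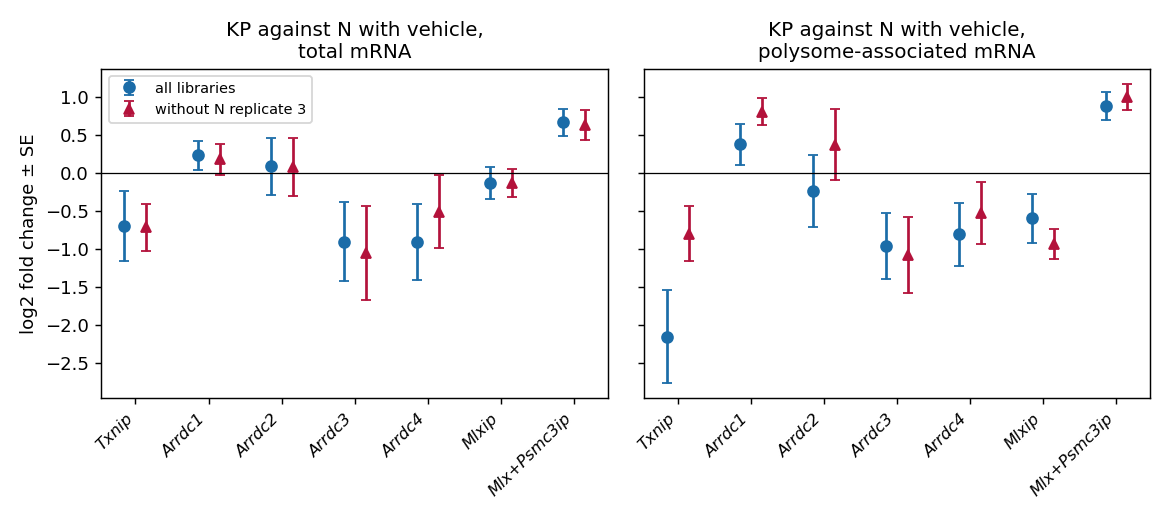
Log2 fold change with its SE of each gene in KP against N with vehicle, in total mRNA on the left and polysome-associated mRNA on the right, from all libraries (circles) and without N replicate 3 (triangles). Mlx+Psmc3ip lies above 0 in both fractions, and on polysomes the Txnip value goes from -2.16 to -0.80 when N replicate 3 is left out.

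With N replicate 3 set aside, 4 of 6 genes were called on polysomes (Arrdc1, Arrdc3, Mlxip and Mlx+Psmc3ip), while 52.6% of all genes were called. In total mRNA 1 of 6 was called (Mlx+Psmc3ip), against 19% of all genes. After CR-31, 3 of 6 genes were called between KP and N in total mRNA, against 40% of all genes: Arrdc3 (-1.08 ± 0.52, adjusted p = 0.188 by edgeR), Arrdc4 (-1.08 ± 0.50, adjusted p = 0.175) and Mlx+Psmc3ip (0.76 ± 0.17, adjusted p = 0.0208). On polysomes 2 of 6 were called, against 25% of all genes, namely Arrdc4 (-0.88 ± 0.41, adjusted p = 0.229 by edgeR) and Mlx+Psmc3ip (0.73 ± 0.19, adjusted p = 0.0423). When N replicate 3 was left out, the calls after CR-31 were Mlx+Psmc3ip alone in total mRNA (1 of 6, against 26.9% of all genes), and Mlxip (-0.54 ± 0.20, adjusted p = 0.122 by edgeR) and Mlx+Psmc3ip on polysomes (2 of 6, against 34.7%). In polysome-associated mRNA after CR-31 Mlx+Psmc3ip and Arrdc1 lay above and Mlxip below every N library in all 3 KP libraries, and groups did not overlap for 28.96% of all genes.

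Under CR-31 none of the other 6 genes passed the test. Over these 6 genes the log2 fold changes ran from -0.12 to 0.27 in total mRNA of KP, from -0.38 to 0.27 in that of N, from -0.23 to 0.19 in polysome-associated mRNA of KP and from -0.47 to 0.11 in that of N, with SEs up to 0.52. The -0.47 is that of Arrdc2, which was 0.09 ± 0.51 without N replicate 3, and the values in N then ran from -0.23 to 0.07 in total and from -0.52 (Mlxip) to 0.28 (Arrdc1) in polysome-associated mRNA. The adjusted p was 1.00 for each by edgeR. The lowest unadjusted p belonged to Mlxip in total mRNA of N, at -0.38 ± 0.21 (unadjusted p = 0.0987 in the edgeR fit), and the value was -0.17 ± 0.20 without N replicate 3. There its CR-31 libraries (44.1, 45.1 and 26.3 CPM) all lay below the vehicle libraries (49.7, 50.8 and 49.9), which held for Mlxip alone of the 7 genes and, in either direction, for 6.81% of all genes. In total mRNA of KP the libraries did not overlap for Txnip alone of the 7, and for 5.88% of all genes.

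**Figure D4:**
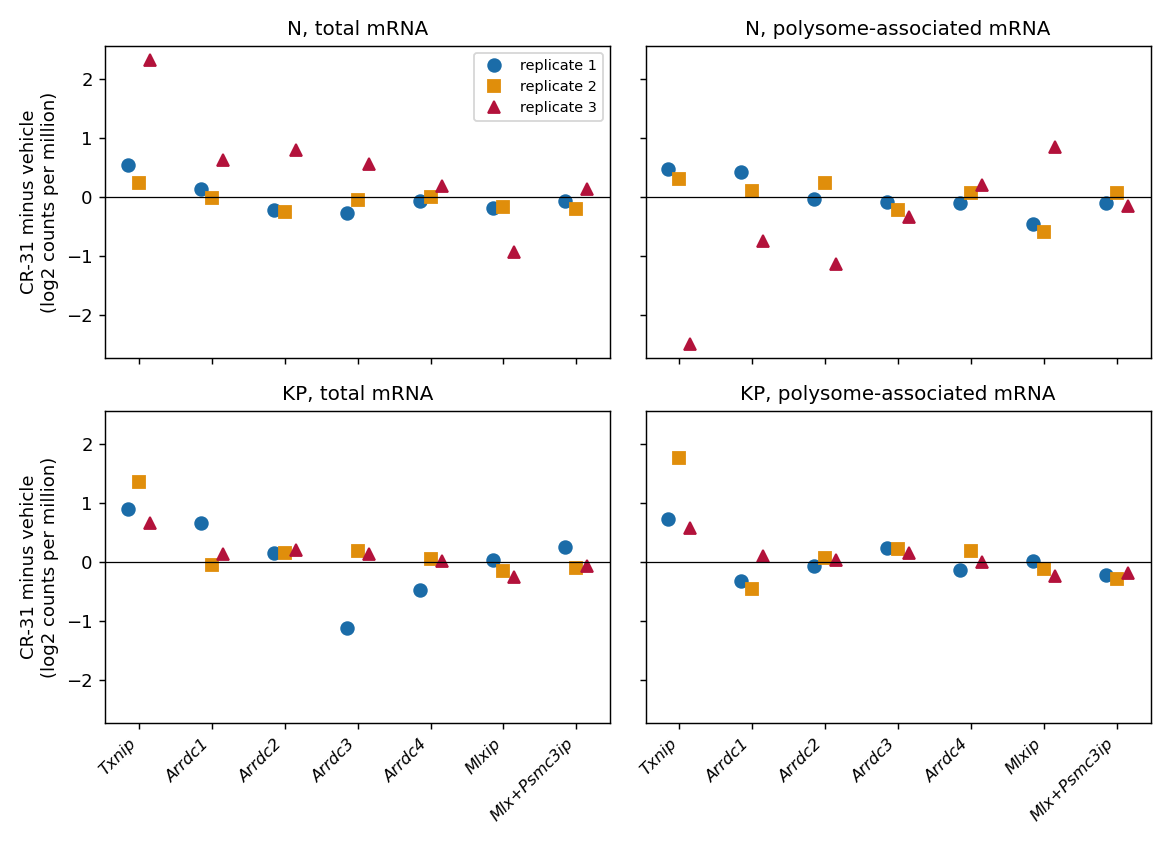
CR-31 minus vehicle in log2 CPM for each gene and same-numbered pair, with N in the upper and KP in the lower row, total mRNA on the left and polysome-associated mRNA on the right. Txnip is above 0 in all pairs but that of N replicate 3 in polysome-associated mRNA, at -2.49.

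The presence of each mRNA on polysomes was read from the log2 ratio of polysome-associated to total mRNA in the same lysate, which is relative to the bulk of all genes. Txnip was below its total level in 11 of 12 lysates. In KP the ratios were -0.46, -0.78 and -0.17 with vehicle and -0.51, -0.35 and -0.22 with CR-31. In N they were -0.12, -0.40 and 2.27 with vehicle and -0.19, -0.37 and -2.56 with CR-31, the third value in each being that of replicate 3. Apart from those, all lysates lay between -0.78 and -0.12. In the edgeR model of all 24 libraries no Txnip ratio was called (adjusted p 0.267 to 0.726). When N replicate 3 was left out the ratio was -0.48 ± 0.12 (adjusted p = 0.0257 by edgeR) in vehicle-treated and -0.37 ± 0.12 (adjusted p = 0.0658) in CR-31-treated KP, and -0.28 ± 0.15 (adjusted p = 0.248) and -0.30 ± 0.15 (adjusted p = 0.309) in N.

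Mlxip was lower on polysomes than in total mRNA in 6 of 6 KP lysates. Its ratios were -0.56, -0.46 and -0.44 with vehicle and -0.46, -0.40 and -0.40 with CR-31 in KP. In N they were 0.17, 0.55 and -1.04 with vehicle and -0.10, 0.10 and 0.71 with CR-31, and replicate 3 was the lowest with vehicle and the highest with CR-31. The vehicle ratio in KP was called at -0.49 ± 0.23 (adjusted p = 0.226 by edgeR). That call was lost in 8 of 13 settings that left lysates out, with values from -0.50 to -0.45 over the 13. Leaving out N replicate 3 gave -0.49 ± 0.10 (adjusted p = 0.0130) with vehicle and -0.43 ± 0.10 (adjusted p = 0.0183) with CR-31, and in vehicle-treated N it was called in the other direction at 0.34 ± 0.12 (adjusted p = 0.0980).

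The other calls of this kind were few. Mlx+Psmc3ip was lower on polysomes in 11 of 12 lysates and was called in CR-31-treated N (-0.29 ± 0.13, adjusted p = 0.243 by edgeR). This call was lost in 10 of 13 settings that left lysates out. Arrdc3 was called in CR-31-treated KP at 0.58 ± 0.22 (adjusted p = 0.151), where the ratio was 1.34 in replicate 1 and 0.32 and 0.11 in the others, and without that lysate it was 0.21. Arrdc1 had ratios of 0.36, 0.48 and 0.32 in vehicle-treated KP and was not called (0.39 ± 0.22, adjusted p = 0.302 by edgeR). Of the 7 genes, 0 were called in vehicle-treated N, 1 in CR-31-treated N, 1 in vehicle-treated KP and 1 in CR-31-treated KP, against 15.2%, 18.5%, 27.5% and 20.2% of all genes. With N replicate 3 left out there were 3 (Txnip, Mlxip and Mlx+Psmc3ip), 1 (Mlx+Psmc3ip), 3 (Txnip, Arrdc1 and Mlxip) and 4 (Txnip, Arrdc3, Mlxip and Mlx+Psmc3ip), against 35.7%, 19.1%, 47.8% and 39.7% of all genes.

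**Figure D5:**
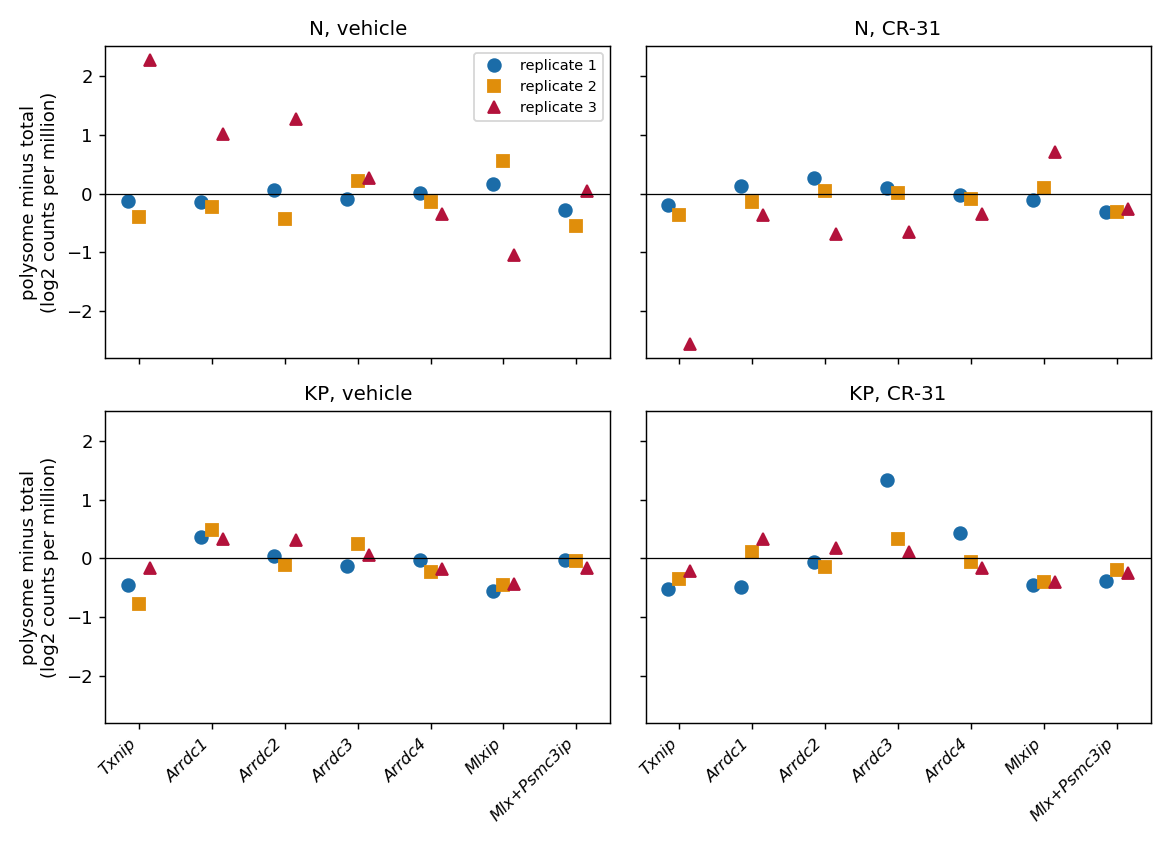
Log2 ratio of polysome-associated to total mRNA of each gene in every lysate, in 1 panel per organoid type and treatment with symbols for the replicate number. In KP the Txnip and Mlxip points all lie below 0, and in N replicate 3 the Txnip ratio is 2.27 with vehicle and -2.56 with CR-31.

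Translational efficiency, the change in polysome-associated mRNA beyond that in total mRNA, was tested as an interaction in the same model. It gave 0 called genes of 11439 (0%) for KP against N and for CR-31 in either organoid type. An unadjusted p under 0.05 was met by 1297 genes for KP against N, 628 for CR-31 in KP and 328 for CR-31 in N. Of these only the 328 are a smaller share of the genes than the 0.05 met on average with no change. DESeq2 called 350, 0 and 0 genes, and limma on RPKM called 0 in each. For KP against N the log2 values were -0.39 ± 0.33 for Mlxip (adjusted p = 0.639 by edgeR), 0.18 ± 0.31 for Arrdc1 (adjusted p = 0.825) and 0.18 ± 0.19 for Mlx+Psmc3ip (adjusted p = 0.684). When N replicate 3 was left out these 3 genes were called, at -0.83 ± 0.16 (adjusted p = 0.0732 by edgeR), 0.59 ± 0.21 (adjusted p = 0.111) and 0.35 ± 0.15 (adjusted p = 0.165), while 35.8% of all genes were called. The polysome to total ratio was thus lower for Mlxip and higher for Arrdc1 and Mlx+Psmc3ip in KP than in N when that replicate was left out. The Txnip value for KP against N was -1.01 ± 0.66 with and -0.20 ± 0.19 without N replicate 3. For CR-31 it was 0.11 ± 0.63 (adjusted p = 0.937 by edgeR) in KP and -1.54 ± 0.68 (adjusted p = 0.736) in N, and -0.02 ± 0.21 in N without replicate 3.

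When polysome-associated mRNA was regressed on total mRNA as in the approach of anota2seq but with the replicate number added as a block, Txnip was called for CR-31 in KP at 2.11 ± 0.56 (adjusted p = 0.231 by limma), as were 16.7% of all genes. The fitted slope of polysome-associated on total Txnip was -1.12 in that fit, which makes the value larger than the polysome change itself and lies below the lowest slope that the study accepted, so its filter would leave this call out. Without the block the slope was 0.15 and the value 0.92 ± 0.71 (adjusted p = 0.645).

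Across the 24 libraries the genes outside the 7 whose log2 CPM were most like those of Txnip were Jun (r = 0.97), an immediate early transcription factor, Irf1 (0.93), an interferon-induced transcription factor, Tspyl2 (0.93), Alas1 (0.93), the first enzyme of haem synthesis, and P4ha2 (0.91), a collagen prolyl hydroxylase. The libraries share lysates, and N replicate 3 weighs in these values. Without its 4 libraries Jun had 0.94 and Tspyl2 0.93, and they still ranked 1 and 2, whereas Irf1 had 0.84 and ranked 18 and Alas1 had 0.80 and ranked 52. Jun held 45.6, 38.5 and 66.9 CPM in total mRNA of vehicle-treated KP and 78.7, 115.6 and 126 with CR-31, so it too was higher in each pair. Being higher in all 3 of these pairs held for 15.6% of all genes, and Jun was picked for its likeness to Txnip in these libraries. The Jun levels in N replicate 3 were 1211 in the vehicle polysome and 1231 in the CR-31 total library. Of the 6 other genes, Arrdc4 was most like Txnip (r = 0.60, rank 806 of 11438) and Arrdc3 came next (0.48), while Mlxip had -0.28 and Mlx+Psmc3ip -0.37. In the 20 libraries without N replicate 3 the order of the first pair turned, with 0.49 for Arrdc3 and 0.46 for Arrdc4, and Mlxip turned positive (0.28).

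The wider glucose-sensing network, 6 genes that code for ChREBP and the Max, Mnt, Mxd and Mga proteins that bind E-boxes, had 0 genes higher and 2 lower in KP on polysomes with vehicle, where 43.1% of all genes were called, a share that applies to the lists below as well. These were Mga (log2 fold change -0.81 ± 0.36, adjusted p = 0.143 by edgeR) and Mnt (-0.43 ± 0.21, adjusted p = 0.185), both repressors of Myc targets. Their median log2 fold change was -0.13, against -0.03 for all genes. Mlxipl, which codes for ChREBP, stood at 4.01 ± 2.31 CPM (SD, n = 3) in N and 4.69 ± 1.16 in KP, a difference that did not pass the test (0.23 ± 0.53, adjusted p = 0.807 by edgeR).

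Of 15 further genes known to respond to carbohydrate, 2 were higher and 5 lower in KP on polysomes, with a median of 0.01. In total mRNA 3 were higher and 2 lower, with a median of -0.05. There 28.5% of all genes were called, a share that also applies to total mRNA of the lists below. Without N replicate 3 total mRNA had 1 higher and 3 lower, against 19% of all genes. After CR-31 the counts were 5 and 2 in total and 2 and 2 in polysome-associated mRNA, against 40% and 25% of all genes. Rgs16, a regulator of G protein signalling, differed by -4.45 ± 0.96 (adjusted p = 0.0130 by edgeR), from 74.6 ± 59.3 CPM in N to 3.44 ± 3.76 in KP. Klf10, a transcription factor, fell by 2.37 on the log2 scale (SE 0.35, adjusted p = 0.00344), and the fatty acid elongase gene Elovl6 rose by 1.14 (SE 0.50, adjusted p = 0.132). With N replicate 3 set aside the values were -3.57 for Rgs16, -1.85 for Klf10 and 0.74 for Elovl6, all still called, and the list had 4 genes higher and 4 lower, when 52.6% of all genes were called. The share called was near that of all genes both times.

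Of 16 genes of glucose entry (transporters and hexokinases) 10 were tested, and 3 were higher and 1 lower in KP on polysomes, with a median of 0.32. In total mRNA 1 was higher and 1 lower, with a median of -0.03, and 28.5% of all genes were called. Without N replicate 3 these counts were 0 and 1, with a median of -0.17, against 19% of all genes. Slc2a1, the main glucose transporter of most cells and a cargo of Txnip, held 192 ± 69.4 CPM in N and 193 ± 45.7 in KP (0.01 ± 0.35, adjusted p = 0.990 by edgeR). The called genes with the largest values were Hkdc1 (1.66 ± 0.94, adjusted p = 0.240), Slc2a8 (1.19 ± 0.28, adjusted p = 0.0169) and Slc2a2 (1.12 ± 0.57, adjusted p = 0.197). On polysomes with vehicle Hkdc1 and Slc2a2 were at most 1.97 CPM on average in either organoid type. Hkdc1 lost its call without N replicate 3 (1.47 ± 1.12, adjusted p = 0.358 by edgeR). The list then had 2 genes higher and 2 lower, when 52.6% of all genes were called.

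In the thioredoxin system, the binding partner of the Txnip protein, 1 of 4 tested genes was higher in KP on polysomes and 0 were lower, with a median of 0.24. Txn2, the mitochondrial thioredoxin, rose by 1.11 (SE 0.22, adjusted p = 0.00841 by edgeR). Txn1, the cytosolic one, held 382 ± 87.9 CPM in N and 509 ± 234 in KP (0.41 ± 0.35, adjusted p = 0.437).

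The partners of the arrestins, 13 genes of Nedd4-family ubiquitin ligases and ESCRT factors of which 11 were tested, had 0 genes higher and 3 lower in KP on polysomes, and 0 called in total mRNA. The 3 were ligase genes: Itch (-0.79 ± 0.22, adjusted p = 0.0348 by edgeR), Nedd4 (-0.69 ± 0.22, adjusted p = 0.0543) and Nedd4l (-0.69 ± 0.26, adjusted p = 0.0896). Leaving out N replicate 3, they stood at -0.81, -0.85 and -0.68 and the list had 4 lower, when 52.6% of all genes were called. The list's median was -0.03, the same as for all genes, and -0.26 against -0.02 without that replicate. Of 3 further arrestin genes 2 were tested and 0 called, and without N replicate 3 Arrb2, a beta-arrestin gene named after its value was seen, was called higher (0.44 ± 0.17, adjusted p = 0.0873 by edgeR).

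AMPK phosphorylates the Txnip protein and marks it for degradation. Of 8 genes of AMPK subunits and its kinase Lkb1 (gene Stk11) 6 were tested, and 1 was higher and 3 lower in KP on polysomes, with a median of -0.32. The lower ones were Prkab2 (-0.98 ± 0.46, adjusted p = 0.161 by edgeR), Prkaa2 (-0.96 ± 0.51, adjusted p = 0.214) and Prkaa1 (-0.68 ± 0.20, adjusted p = 0.0367). Without N replicate 3 the list had 2 higher and 3 lower, when 52.6% of all genes were called. In the main fit of CR-31 against vehicle, which left the pairing out, 0 genes of these 7 lists were called. The same was the case for all genes of the table. In the fit with the replicate block, which called 19.3% of all genes in polysome-associated mRNA of KP, the lists had there 1 of 6 genes higher and 1 lower (glucose sensing), 3 of 15 higher (carbohydrate response), 1 of 10 higher and 2 lower (glucose entry) and 1 of 2 lower (further arrestins), and 0 called in the other 3 lists. The 3 carbohydrate-responsive genes, named after their values were seen, were Hk2 (1.15 ± 0.27, adjusted p = 0.192 by edgeR), a hexokinase also in the glucose entry list, Pfkfb3 (0.83 ± 0.31, adjusted p = 0.204), a regulator of glycolysis, and Acly (0.82 ± 0.27, adjusted p = 0.193), which makes acetyl-CoA from citrate. The 2 lower glucose entry genes, named in the same way, were Slc2a6 (-2.83 ± 0.58, adjusted p = 0.192 by edgeR) and Slc2a8 (-0.64 ± 0.18, adjusted p = 0.192). Slc2a6 held 0.162, 0.108 and 1.85 CPM there with vehicle and 0.0441, 0.0423 and 0.117 with CR-31, so its level was low. The others were Mga (0.49 ± 0.14), which was higher, and Mxd4 (-0.51 ± 0.19) and Arrb2 (-0.33 ± 0.15). In total mRNA and in N the block called 0 genes of the lists.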

How the data were processed

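Total and polysome-associated mRNA of 12 lysates was sequenced as read pairs. The authors aligned reads with HISAT2, discarded those with several matches, and deposited counts per RefSeq gene without normalization, and RPKM values of the same 24 libraries. The submitters' notes name the human build hg38, while the entries are mouse genes. No replicates were pooled. The full genotype of the KP mice is not reported here. The fits kept entries with a single symbol that no other entry repeats, counted at least once in each library, plus Mlx+Psmc3ip. Counts were TMM-normalized and tested with edgeR 4.0.16 (quasi-likelihood test, Benjamini-Hochberg adjustment over all 11439 entries, R 4.3.3), with the 4 groups of a fraction in 1 model. Translational efficiency and polysome against total mRNA came from a model of 24 libraries with the lysate as a block. Calls are at an adjusted p under 0.25, as in the study. CPM are counts scaled by TMM library size (for marker lists, by all counted reads), and log ratios of single pairs used a prior count of 0.5. Alternatives used DESeq2 1.42.0 and limma 3.58.1 (log2 of RPKM + 0.1). The fits were tested on simulated data.

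The replicate numbers of the labels were checked by correlating, across genes, how far libraries of 1 number lay from the mean of their group. CR-31 set against vehicle gave r of 0.55 to 0.89 in N and 0.45 to 0.80 in KP, all above 0.1. These libraries were read as pairs. The main fits left this pairing out, and the fits with the replicate number as a block used it. N with KP gave -0.17 to 0.28, and was treated as unpaired. The members, lists and tests were chosen with earlier results of these data known. Named genes are the 7 members, the 5 genes most correlated with Txnip, up to 3 called genes of each list by size of change, and Mlxipl, Slc2a1 and Txn1. Sequences are from RefSeq.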

Additional observations from a re-analysis of the deposited data

Results flagged for a closer look

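Arrdc3 in polysome-associated mRNA was marked because every N pair moved one way with CR-31 and every KP pair the other. The mean log2 difference was -0.208 ± 0.130 (SD, n = 3 pairs) in N and 0.208 ± 0.050 in KP. Such a split, in either direction, held for 771 (6.74%) of 11439 genes. The fitted difference between these effects was 0.41 ± 0.62 (SE) with an adjusted p of 1.00 by edgeR, and 0.42 ± 0.18 (unadjusted p = 0.0468, adjusted p = 0.350 by edgeR) with the replicate number as a block, so it passed in neither fit.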

How the results depend on the processing

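Of the counts of called genes, 288 of 362 values under an alternative were within 1.5 times the main count or 0 like it. Many were 0 in both, as for CR-31 against vehicle. With lysates left out, 11 of 13 counts moved for polysome against total mRNA in CR-31-treated N and in vehicle-treated KP. For KP against N with CR-31 on polysomes 9 of 13 moved. Of the values of single genes 576 of 665 kept their direction and side of the threshold. Mlx+Psmc3ip in KP against N with vehicle kept its call in both fractions under each alternative tried. Each group has 3 samples, and 1 replicate of N stands apart. The counts of called genes among the 7 move by up to 3 genes when lysates are left out. Those for the effect of CR-31, also on translational efficiency, stay at 0. The cause of each change below was not tested.

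Leaving lysates out gave, for KP against N with vehicle, 1 to 2 called genes in total and 1 to 4 in polysome-associated mRNA, with CR-31 1 to 3 and 1 to 4, for translational efficiency of KP against N 0 to 3, and for polysome against total mRNA 0 to 3 in vehicle-treated N, 0 to 2 in CR-31-treated N, 0 to 3 in vehicle-treated KP and 0 to 4 in CR-31-treated KP. For CR-31 against vehicle it gave 0 throughout. At a stricter threshold of 0.05 there was 1 call for KP against N with vehicle on polysomes and with CR-31 in either fraction, and 0 for polysome against total mRNA in CR-31-treated N and in both KP groups. RLE normalization gave 0, 0 and 2 calls in these last 3 groups, and upper-quartile normalization 0 in CR-31-treated N and 2 in CR-31-treated KP. filterByExpr and limma on RPKM each gave 0 in CR-31-treated N. No filter on low counts gave 0 in CR-31-treated N and vehicle-treated KP and 1 for KP against N with CR-31 on polysomes. DESeq2 gave 2 for KP against N with vehicle in total mRNA and 2 for polysome against total mRNA in CR-31-treated KP.

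With the replicate number as a block, 3 genes were called for KP against N with vehicle in total mRNA and 4 with CR-31 on polysomes, against 56.4% and 58.2% of all genes. Because N and KP are unpaired, that p is too small for KP against N. The regression on total mRNA with the block called 4 genes for translational efficiency of KP against N (54.1% of all genes) and 1 (Txnip) for CR-31 in KP. The slopes of Mlxip (-1.62), 1 of those 4, and of Txnip (-1.12) lie below the lowest that the study accepted, so its filter would leave both out. The block changed no other call of CR-31 against vehicle.

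Directions turned in some values. With lysates left out, Arrdc2 in KP against N ranged from -0.054 to 0.33 in total mRNA, below 0 without KP vehicle replicate 1 or 3, and from -0.57 to 0.38 on polysomes, above 0 without N vehicle replicate 3 (0.38) or KP vehicle replicate 2 (0.06). Txnip with CR-31 in N on polysomes ranged from -1.51 to 0.39, above 0 without N vehicle replicate 3 (0.28) or both lysates of N replicate 3, and its effect in KP minus N in total mRNA from -0.71 to 0.61, above 0 without N CR-31 replicate 3 (0.59) or both lysates. Its translational efficiency with CR-31 ranged from -0.044 (without KP vehicle replicate 2) to 0.27 in KP, and was 0.59 in N under the blocked regression, against -1.54 in the fit as reported. That of Arrdc1 in KP against N ranged from -0.065 without N vehicle replicate 2 to 0.55 without N vehicle replicate 3 and 0.59 without both lysates. The polysome to total ratio of Mlxip in vehicle-treated N was 0.02 with limma on RPKM, and ranged from -0.41 without N vehicle replicate 2 to 0.38 without N vehicle replicate 3, with 0.34 without both lysates. A sequencing lane term, fitted for the CR-31 comparisons, left 0 of the 7 genes called.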
